A study of Mus musculus with 5 samples.

Results

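The DYRK and CLK protein kinases and Dcaf7, the adaptor that binds DYRK1A, were followed probe by probe in N18 mouse neuroblastoma cells given extra Dyrk1a. The members were every probe that the platform annotation assigns to Dyrk1a, Dyrk1b, Dyrk2, Dyrk3, Dyrk4, Clk1, Clk2, Clk3, Clk4 or Dcaf7. This gave 18 probes of 44290 features on the array, for 8 of the 10 genes. Dyrk2 and Clk1 had no probe under these names and were not analysed here. Of the 18 probes, 13 had a value on all 5 arrays and entered the test over 20113 such features. The other 5 probes had values on 2 to 4 arrays and are given by their values.

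N18 cells infected with pAd-Dyrk1a, an adenovirus that delivers the coding sequence of Dyrk1a, were compared with N18 cells infected with a control adenovirus vector (pAd-Track-CMV), so both sides carried virus. Total RNA from 1 sample of each kind was hybridised together on each of 5 two-colour arrays. Dyrk1a RNA carried the dye Cy5 on replicates 1, 2 and 3 and the dye Cy3 on replicates 4 and 5, called the Cy5 arrays and the Cy3 arrays here. The design text describes 5 individual samples; nothing in the labels says whether they came from separate infections, so p-values measure the spread between these arrays. The infected share of cells and the time after infection are not given in the sources used here. Each value is a log2 ratio of Dyrk1a over control vector, centred on the median of the tested features of its array. A ratio holds no level, so neither the abundance of a kinase transcript nor the identity of the cells by their markers could be read from it.

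DYRK kinases phosphorylate a tyrosine in their own activation loop as they are made and afterwards act on serines and threonines of other proteins. DYRK1A is dosage-sensitive in the brain, where extra or missing copies alter neuron number, and its gene lies in the region of the human genome that is present in an extra copy in Down syndrome. The CLK kinases are relatives that phosphorylate SR splicing factors in nuclear speckles, and several of them regulate the splicing of their own transcripts. DCAF7, also called WDR68, is a WD-repeat protein that docks on DYRK1A and DYRK1B and brings them substrates.

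Arrays gave a value for 63.8% to 70.0% of all features. Replicate 2 stood apart, with an interquartile range of 0.318 over the tested features, against 0.165 to 0.194 on the other arrays. On replicate 2, 6.02% of tested features had a centred log2 ratio above 0.5, against 0.627% to 1.04% on the other arrays.

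Dyrk1a itself rose on 1 of its probes and not measurably on the others. Probe 6362, annotated to the RefSeq transcript NM_007890, read 2.46, 2.30, 1.93, 3.02 and 2.38 (centred log2 ratios, replicates 1 to 5). All 5 values lay far above 0, the lowest in replicate 3 and the highest in replicate 4, and on each array at least 99.865% of measured features were lower. The mean was 2.42 ± 0.40 (SD, n = 5) and the fitted log2 change 2.47 (SE 0.12, 95% interval 2.18 to 2.75), a 5.52-fold rise with a limma adjusted p of 0.00953. It was the single feature called higher among 20113, a background of 0.00497%, and 0 features, 0%, were called lower. Dyrk1a was the gene delivered, and the direction of the ratios was read from this probe, so its sign is no check of that direction. Within dye orientations the mean was 2.23 over the 3 Cy5 arrays and 2.70 over the 2 Cy3 arrays, and the dye term was -0.24 (limma adjusted p = 0.365). The call was lost without replicate 1 (limma adjusted p = 0.276) and without replicate 4 (limma adjusted p = 0.0574), while the fitted log2 change stayed between 2.30 and 2.63 with any 1 array left out.

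The other Dyrk1a probes are annotated to cDNA clones. Probe 18171, from clone AK047845, read -0.091, -0.121, -0.001 and -0.017 on the same scale on the first 4 arrays and had no value in replicate 5. Every value was at or just below 0. Over features with at least 4 values the fitted log2 change was -0.043 (95% interval -0.18 to 0.094), so the interval ended at a 1.07-fold rise for this probe. Probe 4200, from clone BC034550, had values on 2 arrays, 0.095 in replicate 1 and 0.032 in replicate 5. On the arrays that measured both, probe 6362 exceeded probe 18171 by 2.49 ± 0.46 log2 units (SD, n = 4), from 1.93 to 3.04 and in the same direction each time. A two-sided exact permutation test gave the smallest p that 4 arrays allow, which cannot pass 0.05 (adjusted p = 0.344 over the 11 probe pairs compared). The positions of these probes relative to the coding sequence in the virus were not used here.

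**Figure D1:**
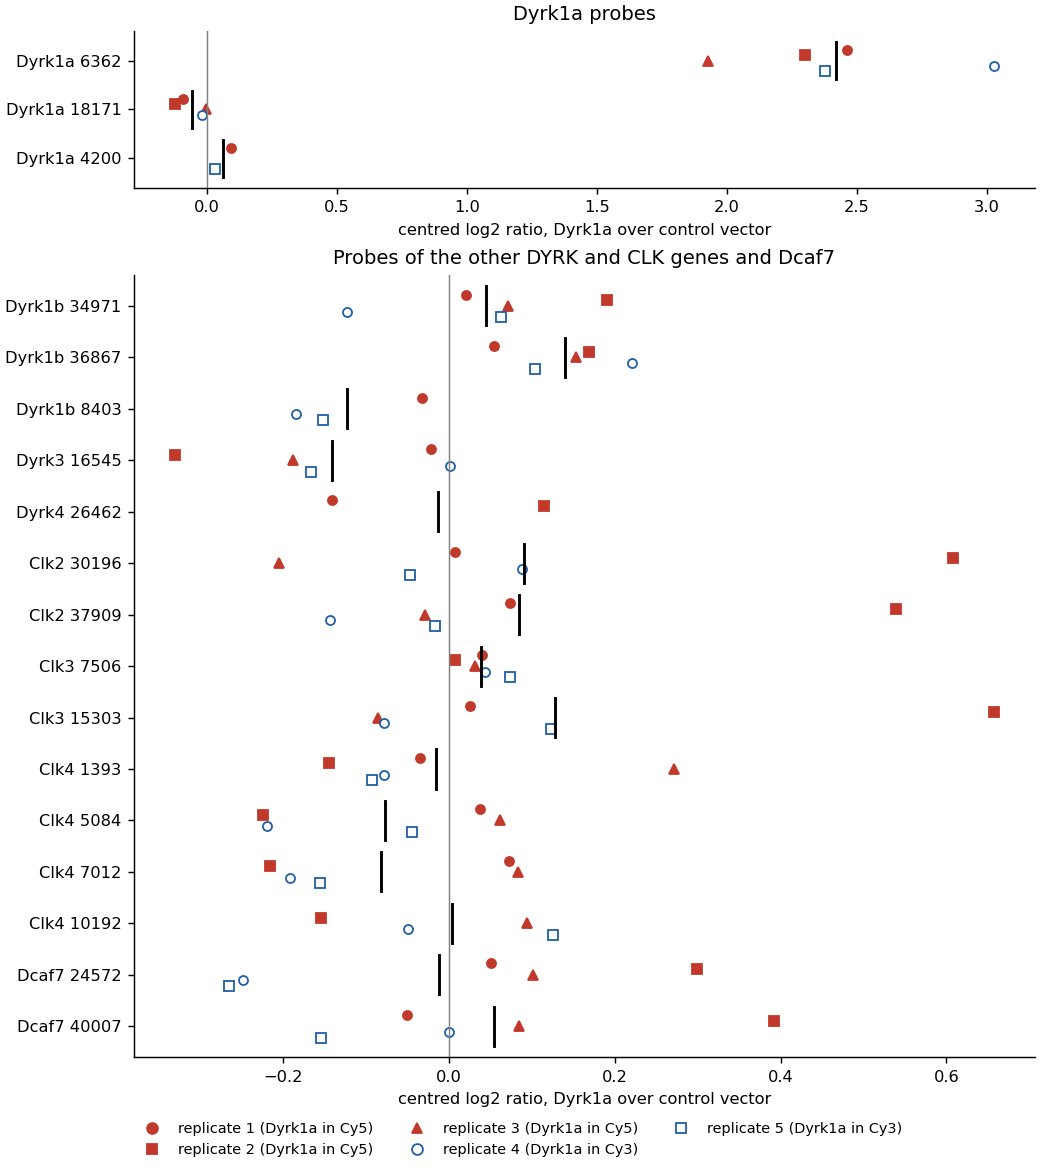
Centred log2 ratio of Dyrk1a over control vector (horizontal axis) for each of the 18 probes (rows, gene and probe number). Each marker is 1 array, filled red where Dyrk1a RNA was in Cy5 and open blue where it was in Cy3, and the black bar is the mean of the arrays with a value. Dyrk1a probe 6362 lies between 1.93 and 3.02 on all arrays, while the other Dyrk1a probes lie between -0.121 and 0.095. In the lower panel, which has a narrower scale, the largest values of Clk2 and of Clk3 probe 15303 come from replicate 2.

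Apart from Dyrk1a, no member probe passed the threshold. In limma 0 of the other 12 tested probes had an adjusted p under 0.05, with adjusted p from 0.312 to 0.930, and at an unadjusted p under 0.05 there was 1 higher probe, of Dyrk1b, and 0 lower. The background at that unadjusted p was 4.13% of features higher and 5.93% lower. The fitted log2 changes ran from -0.13 to 0.14 with a median of 0.032, against 0.0049 over all tested features, and 7 of the 12 were above 0, where 52.8% of all tested features were. Of the 12 intervals, the lowest bound, for Dyrk3, was a 1.21-fold lower level and the highest, for Clk3 probe 15303, a 1.31-fold higher one. An adjusted p above the threshold does not show that these transcripts stayed the same, and the bounds give what 5 arrays leave room for.

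Dyrk1b encodes the closest relative of DYRK1A, also called MIRK, a kinase linked to cell-cycle exit and muscle differentiation. Its probe 36867 gave log2 ratios of 0.054, 0.169, 0.153, 0.221 and 0.104, in the order of the replicates as in all such series of 5 values here. All 5 were above 0, with replicate 4 the highest and replicate 1 the lowest. For Dyrk1a probe 6362 replicate 4 was also the highest, but replicate 3 was the lowest. The mean was 0.14 ± 0.064 (SD, n = 5) and the fitted log2 change 0.14 (SE 0.042, 95% interval 0.041 to 0.25), a 1.10-fold difference with a limma adjusted p of 0.312. Of the other 12 tested probes, 2 were above 0 on all 5 arrays, this one and Clk3 probe 7506, and 0 were below 0 on all 5. Over all tested features 5.31% were above 0 on every array and 5.55% below. The result for probe 36867 differed little by dye, with a mean of 0.13 over the Cy5 arrays and 0.16 over the Cy3 arrays.

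The other Dyrk1b probes did not show this. Probe 34971, annotated like probe 36867 to NM_010092, read 0.021, 0.191, 0.071, -0.123 and 0.063. Replicate 4, the highest array for probe 36867, was the lowest here and the only one below 0. Its fitted log2 change was 0.032 (95% interval -0.087 to 0.15). Probe 34971 was below probe 36867 by 0.096 ± 0.14 log2 units (SD, n = 5), lower on 4 of 5 arrays (exact permutation test, adjusted p = 0.344 over the 11 pairs); 5 arrays cannot pass 0.05 in this test either. Probe 8403, annotated to the transcript variant NM_001037957, had values of -0.032, -0.184 and -0.152 in replicates 1, 4 and 5, all below 0 where probe 36867 was above. Over features with at least 3 values its fitted log2 change was -0.099 (95% interval -0.26 to 0.058, limma adjusted p = 0.758). The 3 probes of this gene thus gave no common direction.

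Dyrk3 encodes a kinase that promotes the dissolution of stress granules. Its only probe, 16545, had log2 ratios of -0.022, -0.330, -0.188, 0.001 and -0.166. Replicates 2, 3 and 5 were clearly below 0 and replicates 1 and 4 near it, a split that does not follow the dye. The fit put the log2 change at -0.13 (SE 0.058, 95% interval -0.27 to 0.0094, limma adjusted p = 0.530), the lowest of the member probes, and without replicate 2 it was -0.094. Dyrk4, of a less studied kinase abundant in testis, had 1 probe, 26462, with values on 2 arrays. They were -0.141 in replicate 1 and 0.115 in replicate 2, on opposite sides of 0.

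Neither Dcaf7 probe passed on the Dyrk1a term or on the dye term. Probe 24572 had log2 ratios of 0.051, 0.299 and 0.102 on the Cy5 arrays (replicates 1 to 3) and of -0.248 and -0.265 on the Cy3 arrays (replicates 4 and 5). The sign turned with the labelling, a pattern that 9.52% of tested features had in the same direction. The dye term was 0.20 (limma adjusted p = 0.117), not past the threshold, which 2.2% of tested features passed on that term and 0 of the 13 member probes. With the dye term in the fit, the log2 change was -0.053 (95% interval -0.17 to 0.067, limma adjusted p = 0.786). Probe 40007, annotated to the same transcript, had values of -0.050, 0.392, 0.085, 0.000 and -0.154. Its replicate 2 was the highest and its fitted log2 change 0.033 (95% interval -0.14 to 0.21). The sign of probe 40007 was not settled: it was at -0.030 without replicate 2, at -0.0058 without replicate 4, at -0.0047 with quantile normalization and at -0.046 with array weights.

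**Figure D2:**
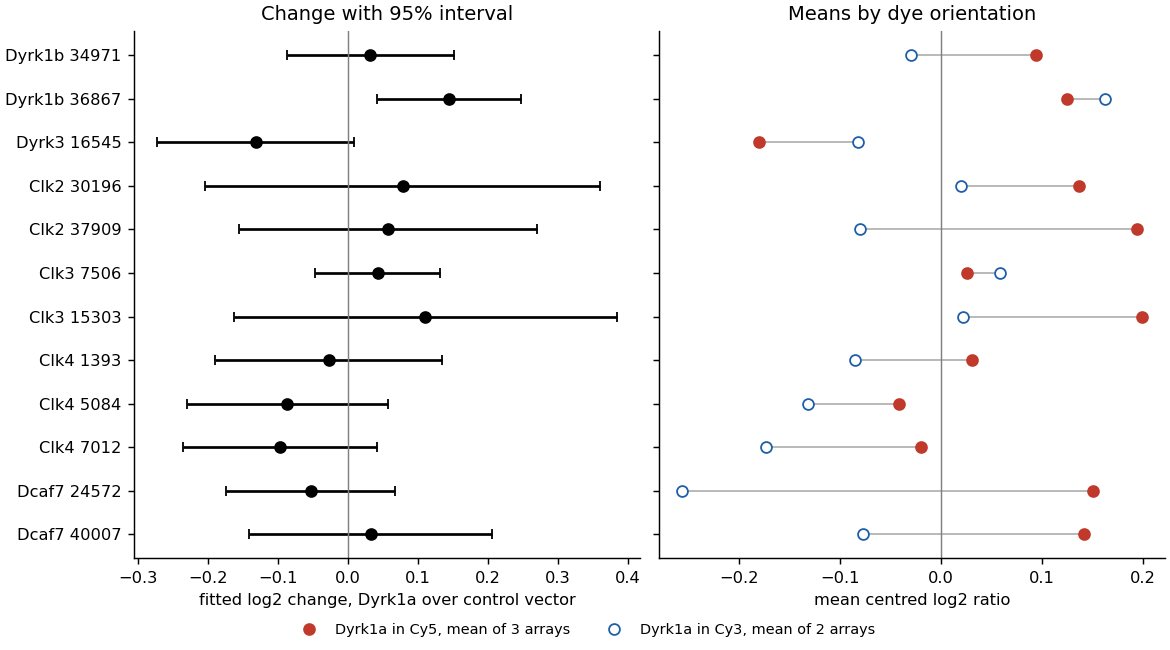
Left, fitted log2 change of Dyrk1a over control vector with its 95% interval for the 12 tested probes other than Dyrk1a. Right, the mean centred log2 ratio of the same probes over the 3 Cy5 arrays (filled red) and the 2 Cy3 arrays (open blue). Dyrk1b probe 36867 is the one whose interval, 0.041 to 0.25, lies wholly on 1 side of 0, and Dcaf7 probe 24572 has the widest gap between dyes, with means of 0.15 and -0.26.

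No probe of a CLK gene passed, and the values farthest from 0 came from single arrays. Clk2 encodes a kinase of SR proteins that also acts in the control of gluconeogenesis. Its probe 30196 gave log2 ratios of 0.007, 0.608, -0.205, 0.088 and -0.047. Its probe 37909 had 0.074, 0.539, -0.029, -0.143 and -0.017. Replicate 2 was the highest on both and the other 4 arrays lay on either side of 0. The fitted log2 changes were 0.079 (95% interval -0.20 to 0.36) and 0.057 (95% interval -0.16 to 0.27). Without replicate 2 they were -0.039 and -0.029. The probes differed by 0.0054 ± 0.15 log2 units (SD, n = 5, exact permutation p = 0.938, adjusted p = 1.0 over the 11 pairs). The gene table also lists a read-through transcript of Clk2 with its neighbour Scamp3, which a Clk2 probe may detect as well.

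Clk3, another SR protein kinase, had a pair of probes that differed in their spread. Probe 7506 read 0.040, 0.007, 0.031, 0.044 and 0.074. These 5 values were nearly equal, with an SD of 0.024, and only 0.328% of tested features had a smaller SD. The fit put its log2 change at 0.042 (SE 0.037, 95% interval -0.046 to 0.13, limma adjusted p = 0.770). Probe 15303, annotated to the same transcript NM_007713, had 0.025, 0.657, -0.085, -0.078 and 0.123. Replicate 2, where probe 7506 had its lowest value, was the highest here, above 98.0% of the features measured on that array. Its fitted log2 change was 0.11 (95% interval -0.16 to 0.38) and -0.0038 without replicate 2. Probe 7506 was below probe 15303 by 0.089 ± 0.32 log2 units (SD, n = 5, exact permutation p = 0.875, adjusted p = 1.0 over the 11 pairs), and by 0.65 in replicate 2 alone.

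Clk4, the closest relative of Clk1, had 4 probes, 3 of them tested. Probe 5084 had log2 ratios of 0.037, -0.224, 0.062, -0.219 and -0.044. Probe 7012 had 0.073, -0.216, 0.083, -0.191 and -0.156. Both were above 0 in replicates 1 and 3 and below 0 in replicates 2, 4 and 5, so the signs were mixed within the Cy5 arrays. The dye terms were 0.045 and 0.077 and did not pass (limma adjusted p = 0.754 and 0.553). They stayed within 0.112 of each other on every array, with a mean difference of 0.0038 ± 0.061 (SD, n = 5, exact permutation p = 1.0), the smallest spread of the 11 pairs. The fitted log2 changes were -0.087 (95% interval -0.23 to 0.057) for probe 5084 and -0.097 (95% interval -0.24 to 0.042) for probe 7012. Without replicate 2 they were -0.041 and -0.048. Probe 1393 had -0.035, -0.145, 0.272, -0.078 and -0.093, with replicate 3 far above the others, and a fitted log2 change of -0.027 (95% interval -0.19 to 0.13), which was 0.016 without replicate 2. Probe 10192, from clone AK161739, had -0.154, 0.094, -0.049 and 0.126 in replicates 2 to 5. Over features with at least 4 values its fitted log2 change was 0.0058 (95% interval -0.15 to 0.16). On every shared array it was above probes 5084 and 7012, by 0.11 ± 0.070 and 0.12 ± 0.12 log2 units (SD, n = 4 each). The exact permutation test gave the smallest possible p for each (adjusted p = 0.344 over the 11 pairs).

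Ranks within each array do not depend on its spread. The ratio of Dyrk1b probe 36867 was above 68.7% to 93.5% of the features measured on the same array, and that of Clk3 probe 7506 above 57.5% to 71.0%. Dyrk3 was above 7.19% of features in replicate 2, 10.8% in replicate 3 and 8.60% in replicate 5, but above 47.0% in replicate 1 and 46.8% in replicate 4. The Clk2 probes were above 97.6% and 96.7% of features in replicate 2, so their values there were high also for that wide array. Replicate 2 held the highest value of 6 of the 12 tested probes other than Dyrk1a and the lowest value of 5, against 31.6% and 29.9% of all tested features. Together 11 of the 12 had the highest or lowest of their 5 values on that array, where 61.4% of all tested features did. The exception was Dyrk1b probe 36867. Such a value need not lie far from the rest. For Clk3 probe 7506 it was 0.007, and for Clk4 probe 5084 it was -0.224, next to -0.219 in replicate 4. Several of the 12 probes share a gene, so the count is not one of independent members.

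**Figure D3:**
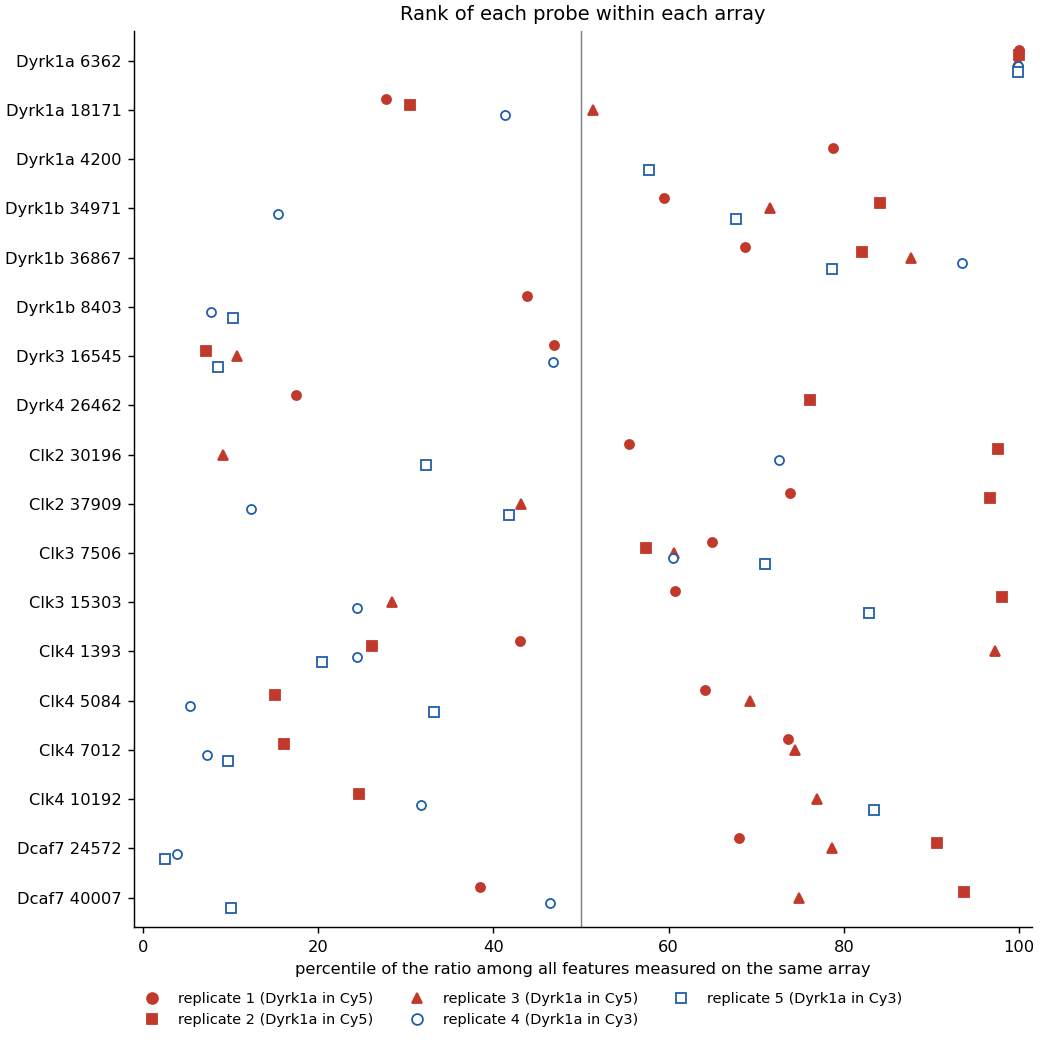
Percentile of each probe's deposited ratio among all features measured on the same array (horizontal axis, 0 to 100), for the 18 probes (rows), with 1 marker per array, filled red for Dyrk1a in Cy5 and open blue for Cy3. Dyrk1a probe 6362 lies above at least 99.865% of measured features on every array and is the highest of all in replicate 1. Dyrk1b probe 36867 and Clk3 probe 7506 stay right of the middle on all 5 arrays, and Dcaf7 probe 24572 lies to the right on the Cy5 arrays and to the left on the Cy3 arrays.

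By a rule of root mean square difference over the 5 arrays, the named probes nearest to Dyrk1a probe 6362 were those of Aldoc, Ndrg4 and Cdc42ep2. They were far from it, at 1.90, 1.94 and 1.98 log2 units, and no named probe was nearer. Since probe 6362 lay far above 0 on every array, the rule picks probes with high ratios rather than a like pattern. Aldoc probe 40457, of brain aldolase, had values of 0.561, 0.820, 0.502, 0.474 and 0.461. Ndrg4 probe 5643, a gene of the NDRG family, had 0.745, 0.950, 0.720, 0.192 and 0.226, lower with Dyrk1a in Cy3. Cdc42ep2 probe 35242, of an effector of the small GTPase CDC42, had 0.208, 0.120, 0.235, 1.876 and 0.004, a high value on replicate 4 alone. On the dye term Ndrg4 probe 5643 passed, at 0.30 (limma adjusted p = 0.0419). On the Dyrk1a term none passed, with limma adjusted p of 0.0862 for Aldoc and for Ndrg4 and of 0.520 for Cdc42ep2. These probes were chosen by the same values that the test uses.

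Among neighbouring branches of the kinase tree, 0 probes passed, where 0.00497% of all tested features were called higher and 0% lower. The HIPK, SRPK and PRP4 kinases, relatives of the DYRKs and the other SR protein kinases, had 14 tested probes with a median log2 change of -0.0043, 6 above 0 and 8 below. In limma 0 were called in either direction, and at an unadjusted p under 0.05 also 0. Srpk2, an SR protein kinase abundant in neurons, held the smallest p in each direction. The higher probe was 1555, at 0.11 (SE 0.048, limma adjusted p = 0.508). The lower one was 29604, at -0.11 (SE 0.051, limma adjusted p = 0.556). The other tested Srpk2 probes, 8592 and 24525, were at 0.0185 and 0.050, so probe 29604 alone was below 0. The GSK3, CDK-like and MAPK branches had 26 tested probes with a median of 0.023, 18 above 0. In limma 0 were called, and at an unadjusted p under 0.05 there were 1 higher and 2 lower. For both lists the background was 52.8% of all tested features above 0, with 4.13% higher and 5.93% lower at that unadjusted p. Mapk10, the neuronal JNK kinase JNK3, was at 0.16 (probe 39494, SE 0.041, limma adjusted p = 0.241), above 0 on 5 of 5 arrays. Its other tested probe, 39215, was at 0.0675, with -0.157 in replicate 2. Mapk8, which encodes JNK1, was at -0.17 (probe 2910, SE 0.041, limma adjusted p = 0.231), below 0 on 5 of 5, while its other tested probes were at 0.0076 and 0.0049. With array weights probes 39494 and 2910 passed, a setting that called 820 features higher and 1113 lower of 20113. Its weights ran from 0.152 for replicate 2 to 3.45 for replicate 1.

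Proteins reported to bind DYRK kinases or to be their substrates had 72 tested probes for 42 of 51 genes, with a median log2 change of 0.020 and 43 above 0. In limma 0 were called, and at an unadjusted p under 0.05 there were 3 higher and 1 lower. Over all tested features 52.8% were above 0, and 0.00497% were called higher and 0% lower. At that unadjusted p 4.13% of them were higher and 5.93% lower. Ywhag, a 14-3-3 gene, read 0.156, 0.367, 0.269, 0.193 and 0.078. Its fitted change was 0.20 (SE 0.048, limma adjusted p = 0.218). It passed with array weights, where 820 of 20113 features were called higher. Sirt1, a deacetylase that DYRK1A phosphorylates, was at -0.14 (probe 36289, SE 0.052, limma adjusted p = 0.445), below 0 on 4 of 5 arrays. Its other probe, 3810, was at -0.023, with 0.658 in replicate 2 and values from -0.288 to -0.074 on the other arrays. The CLK substrates, mostly SR proteins, had 27 tested probes with a median of -0.071, 22 of them below 0, where 47.2% of all tested features were. In limma 0 were called, and at an unadjusted p under 0.05 there were 0 higher and 3 lower, against 4.13% and 5.93% of all tested features. The medians of this list were below 0 on every array, from -0.112 to -0.032. Srsf5 was at -0.21 (probe 15917, SE 0.054, limma adjusted p = 0.251), low on replicates 2 to 5 and at 0.013 in replicate 1, and its other probe was at -0.059. Probe 15917 passed with array weights, where 1113 of 20113 features were called lower. Ptpn1, a tyrosine phosphatase, was at 0.13 (probe 14710, SE 0.10) with 0.539 in replicate 2; without that array it was at 0.027, and its other probe was at 0.025.

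Genes near Dyrk1a on mouse chromosome 16 had no probe past the threshold. From 13 such genes, 11 probes of 7 genes were tested, with a median log2 change of 0.028 and 8 above 0. In limma 0 were called, and at an unadjusted p under 0.05 there were 1 higher and 0 lower. Over all tested features 52.8% were above 0, and 0.00497% were called higher and 0% lower. At that unadjusted p 4.13% of them were higher and 5.93% lower. Ets2, a transcription factor gene, had 0.120, 0.340, 0.147, 0.110 and 0.087 and a fitted change of 0.15 (SE 0.048, limma adjusted p = 0.353). It passed with array weights, where 820 of 20113 features were called higher. Ripply3, a transcriptional repressor gene, was at -0.080 (probe 24330, SE 0.048, and -0.045 without replicate 2), below 0 on the Cy5 arrays and above 0 on the Cy3 arrays. Its other tested probe, 9631, was at -0.0063, with mixed signs under both dye orientations.

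Markers of sympathetic neuroblasts had 19 tested probes with a median log2 change of 0.19, 18 above 0, but 10 of the 19 were Chgb features, which may be repeated spots. Over the means of the 9 genes tested the median was 0.13. In limma 0 probes were called, and at an unadjusted p under 0.05 there were 12 higher, 10 of them Chgb, and 0 lower. Over all tested features 52.8% were above 0, and 0.00497% were called higher and 0% lower. At that unadjusted p 4.13% of all tested features were higher and 5.93% lower. Chgb, a granin of secretory granules, was at 0.24 (probe 37359, SE 0.041, limma adjusted p = 0.1249). Its values were 0.482, 0.428 and 0.473 on the Cy5 arrays and -0.052 and 0.081 on the Cy3 arrays. Probe 37359 passed without replicate 2 (limma adjusted p = 0.0213), a setting that called 178 features higher and 473 lower of 20113. The probes outside Chgb at that unadjusted p were those of Tubb3 and Chga, above 0 under both dye orientations. Tubb3 was at 0.26 (probe 17274, SE 0.058, limma adjusted p = 0.198), with values from 0.075 to 0.413. Chga was at 0.16 (probe 26553, SE 0.036, limma adjusted p = 0.195), with values from 0.118 to 0.193. Isl1, a neuroblast transcription factor gene, was at -0.022 (SE 0.067), the only tested probe of this list below 0. Of the markers of glia, fibroblasts and immune cells, 3 of 30 probes had values on all arrays and were tested, with a median of 0.010 and 0 called in limma, also 0 at an unadjusted p under 0.05. Col1a2, a collagen gene, was at 0.012 (SE 0.058) and Pdgfra, a growth factor receptor gene, at -0.043 (SE 0.053). Their part in the values of the kinase probes was not tested.

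**Figure D4:**
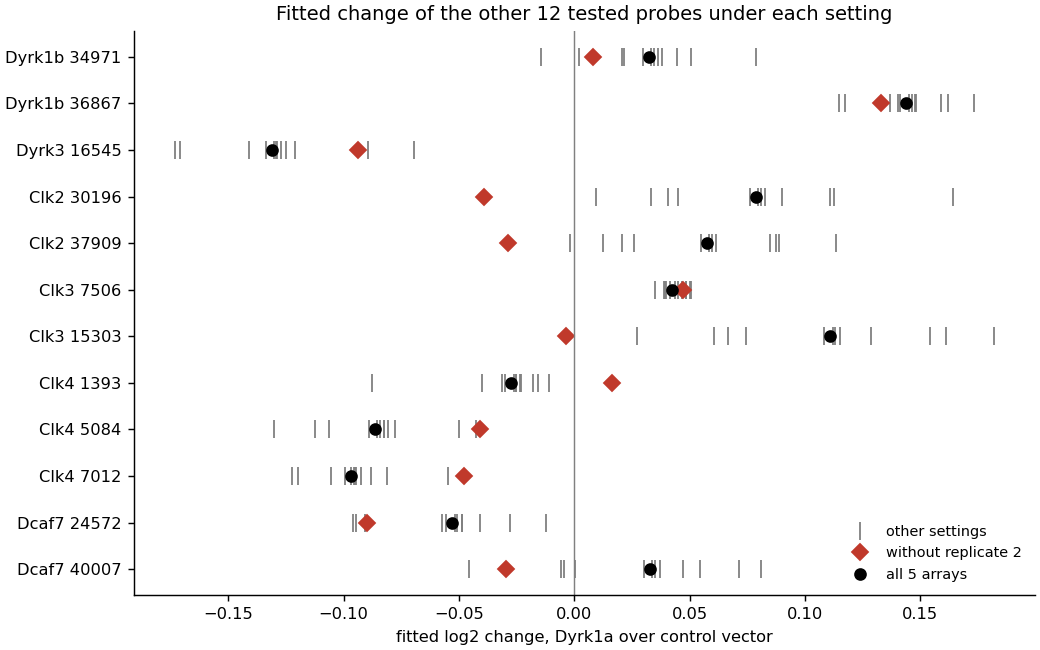
Fitted log2 change of Dyrk1a over control vector (horizontal axis) for the 12 tested probes other than Dyrk1a (rows), with all 5 arrays (black circle), without replicate 2 (red diamond) and under the other settings (grey ticks). Both Clk2 probes, Clk3 probe 15303, Clk4 probe 1393 and Dcaf7 probe 40007 change sign without replicate 2. Dyrk1b probe 36867 and Clk3 probe 7506 lie above 0, and Dyrk3, Clk4 probes 5084 and 7012 and Dcaf7 probe 24572 below 0, in every setting shown.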

How the data were processed

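The log2 ratios deposited by the authors cover 44290 array features on 5 arrays, with 0 columns of other samples. Scanning, background correction and normalization are not given in the sources used here, nor is the log base. Base 10 would make the lowest value, -4.2, a 15849-fold ratio, so the values were read as log2; a natural log would multiply each printed log2 value by 1.44. The columns were read as Dyrk1a over control vector, since Dyrk1a probe 6362 was above 0 under both dye orientations. The reason for blank values is unknown, and intensities were not used here. Of the features, 32042 named 1 gene, and for 31906 the Entrez identifier matched the GRCm38.p6 gene table.

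Each probe was fitted alone with limma 3.58.1 in R 4.3.3 (lmFit, eBayes, two-sided) with a Dyrk1a and a dye coefficient, on the 20113 features with 5 values, each array centred on its median. This left 3 residual and 3.23 prior degrees of freedom. Benjamini-Hochberg adjustment ran over all 20113 features, with a threshold of 0.05. The script was tested on simulated data. Probe pairs were compared by exact sign permutation (scipy 1.17.1). The members and lists were chosen with earlier results of these data known. From each list the probe with the smallest p in each direction was named, and the 3 probes nearest to the leading Dyrk1a probe. Alternatives left out each array or the dye term, scaled, quantile-normalized or weighted the arrays, skipped centring, or changed the features tested. The number of arrays limits the precision.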

Additional observations from a re-analysis of the deposited data

Results flagged for a closer look

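Of 32 probes reported on with 4 or 5 values, 6 had 1 array set apart from the rest by a gap that Dixon's test puts beyond its 95% limit, 3 of them in replicate 2. Chance gives about 1 in 20 where arrays have equal spread, which they did not have, and many of these probes were chosen by their values. Over all tested features 9.15% were set apart in this way, and in 77.8% of those the array was replicate 2. Among the members these were Clk3 probe 15303, at 0.657 in replicate 2 with the other 4 arrays between -0.085 and 0.123, and Clk4 probe 1393, at 0.272 in replicate 3 with the others between -0.145 and -0.035. Among the other probes, Srpk2 probe 29604 stood apart in replicate 1 at 0.088, Ets2 probe 30058 in replicate 2 at 0.34, Aldoc probe 40457 in replicate 2 at 0.82 and Cdc42ep2 probe 35242 in replicate 4 at 1.876.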

How the results depend on the processing

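Each array is itself the pair of 1 Dyrk1a and 1 control vector sample, so the fit of the ratios was already paired. The rise of Dyrk1a probe 6362 passed under each alternative that kept all 5 arrays, with fitted log2 changes of 2.42 to 2.60 and limma adjusted p of 2.25e-05 to 0.0138. With 1 array left out the change was 2.30 to 2.63, and the call was lost without replicates 1 and 4. The counts of features called moved with several settings. Features higher numbered 1 in the main setting, 46 with arrays scaled, 63 with quantile normalization, 820 with array weights and 0 to 178 with 1 array left out. Features lower numbered 0, 255, 293, 1113 and 0 to 473 in the same order. Features called on the dye term numbered 442, then 1116, 1215 and 5516, 33 over features naming 1 gene and 73 to 2831 with 1 array left out. The high ends of these ranges are those without replicate 2. The higher count was 0 without replicates 1 and 4, and the dye count was 73 to 75 without replicates 1, 4 and 5. Dyrk1b probe 36867 passed with array weights alone (0.12, limma adjusted p = 0.0499, from 0.123 to 1.0 over its other alternatives). Array weights also brought past the threshold Mapk10 (0.13, limma adjusted p = 0.0281), Mapk8 (-0.13, 0.0249), Ywhag (0.16, 0.0196), Srsf5 (-0.15, 0.0462), Ets2 (0.12, 0.0387) and Chgb (0.25, 0.00244), and Chgb passed without replicate 2 (0.25, 0.0213). With array weights Clk2 probe 37909 was at -0.0020 and Dcaf7 probe 40007 at -0.046, and with quantile normalization Dcaf7 probe 40007 was at -0.0047, each of opposite sign to the main value. With 1 array left out, probes that changed sign ran from -0.014 to 0.079 (Dyrk1b probe 34971), -0.039 to 0.16 and -0.029 to 0.11 (Clk2 probes 30196 and 37909), -0.0038 to 0.18 (Clk3 probe 15303), -0.088 to 0.016 (Clk4 probe 1393), -0.030 to 0.081 (Dcaf7 probe 40007), -0.081 to 0.027 (Isl1) and -0.016 to 0.061 (Col1a2). The cause was not tested. Leaving out replicate 4 or 5 leaves 1 array with Dyrk1a in Cy3, assumed to vary like the others. A median over gene means, chosen after seeing the data, moved no list's median by more than the spread between arrays.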
